A study of Homo sapiens with 12 samples.

Results

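The cell cycle and replication genes described here are 47 of the 61806 genes in the expression table. They were picked by gene symbol with no threshold on measured values, but with earlier results of these data known. Every symbol matched 1 gene. Of the 47, 8 build or load the replicative helicase, 4 supply nucleotides or clamp the polymerase, 5 are G1/S cyclins and transcription factors, and 24 act in mitosis. The other 6 are the 3 D-type cyclins and the 3 CDK inhibitors of the p21 family. The question was whether their expression fell with passaging and with time during cardiac differentiation.

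All 12 libraries came from wild-type (WT) H1 cells. H1 is an established line of human embryonic stem cells, so the results concern a single line. According to the study's methods, all cells were first induced to mesendoderm with CHIR99021, an activator of WNT signaling, and then received insulin. NP-IWP2 cells were never passaged during differentiation and were given IWP2, an inhibitor of WNT secretion, from Day 2 to Day 4. P-DF cells, titled Pass-ctrl in the labels, were dissociated and replated on Day 2 without IWP2, and P-IWP2 cells were replated on Day 2 and also given IWP2. Each treatment was sequenced on Day 12 and on Day 16 with 2 libraries, numbered 1 and 2 for NP-IWP2, 3 and 4 for P-DF, and 5 and 6 for P-IWP2. No static culture without IWP2 was analysed here, so passaged and static cells are compared only against NP-IWP2. P-DF cells differ from NP-IWP2 cells both in the passage and in the absence of IWP2, which cannot be told apart, and P-IWP2 cells differ from them in the passage. In the study, passaged cells were replated in new coated wells, mostly at a lower density, and the ROCK inhibitor Y27632 was used in its later experiments. These parts of the passage cannot be told apart here. Nothing in the labels says that the libraries of a group came from separate cultures, and p-values then measure only the spread between these libraries.

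Proliferating cells copy their DNA in S phase and divide in mitosis, and the genes for each step are switched on in turn. Helicase genes such as the MCM family and the nucleotide genes are transcribed mainly around the G1/S transition under E2F factors, while cyclin B, PLK1 and the spindle genes are transcribed mainly in G2 and mitosis through MYBL2, FOXM1 and the CHR promoter element. D-type cyclins drive the exit from G1, the inhibitors CDKN1A (p21), CDKN1B (p27) and CDKN1C (p57) oppose it, and cardiomyocytes are known to leave the cell cycle as they mature.

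Promoters of a few members are printed to show elements that were each more frequent in the S phase genes or in the mitosis genes. The sequences are those of RefSeq on GRCh38.p14, from 250 bases before to 50 bases after the gene start, and 36 of the 47 members had an entry. Capitals mark matches, on either strand, to the CHR element (TTTGAA or TTCGAA), the CCAAT box (CCAAT) and the E2F site (TTTGGCGC, TTTCCCGC or GGCGGGAA), all read 5′ to 3′. CCNB2 (a cyclin B), PLK1 (a mitotic kinase) and MKI67 (the Ki-67 antigen) stand for the mitosis genes, and MCM6 (a helicase subunit) and CDC6 (a helicase loader) for the S phase genes.
CCNB2, chr15:59104896-59105195, plus strand: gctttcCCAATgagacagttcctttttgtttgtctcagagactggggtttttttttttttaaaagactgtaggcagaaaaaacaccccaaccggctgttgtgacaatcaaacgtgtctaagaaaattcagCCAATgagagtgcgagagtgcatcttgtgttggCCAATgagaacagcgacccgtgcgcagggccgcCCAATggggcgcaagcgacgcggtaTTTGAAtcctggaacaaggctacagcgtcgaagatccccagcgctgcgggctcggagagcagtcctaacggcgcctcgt
PLK1, chr16:23678639-23678938, plus strand: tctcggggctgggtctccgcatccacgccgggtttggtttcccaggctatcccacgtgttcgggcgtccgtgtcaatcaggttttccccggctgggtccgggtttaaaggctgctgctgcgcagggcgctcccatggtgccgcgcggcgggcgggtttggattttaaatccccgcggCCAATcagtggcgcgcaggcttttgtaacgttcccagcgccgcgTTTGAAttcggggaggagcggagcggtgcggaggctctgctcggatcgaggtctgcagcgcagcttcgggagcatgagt
MKI67, chr10:128126374-128126673, minus strand: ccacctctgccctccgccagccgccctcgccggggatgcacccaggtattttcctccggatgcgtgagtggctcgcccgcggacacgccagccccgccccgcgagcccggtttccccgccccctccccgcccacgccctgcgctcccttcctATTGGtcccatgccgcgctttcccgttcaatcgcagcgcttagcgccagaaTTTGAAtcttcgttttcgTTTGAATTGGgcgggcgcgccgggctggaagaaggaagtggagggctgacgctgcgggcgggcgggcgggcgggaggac
MCM6, chr2:135876394-135876693, minus strand: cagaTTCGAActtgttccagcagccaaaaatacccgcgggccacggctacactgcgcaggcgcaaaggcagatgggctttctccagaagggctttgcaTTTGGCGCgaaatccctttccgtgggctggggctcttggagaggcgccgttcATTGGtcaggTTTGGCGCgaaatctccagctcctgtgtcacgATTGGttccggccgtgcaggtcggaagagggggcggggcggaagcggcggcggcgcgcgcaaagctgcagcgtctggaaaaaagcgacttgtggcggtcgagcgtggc
CDC6, chr17:40287629-40287928, plus strand: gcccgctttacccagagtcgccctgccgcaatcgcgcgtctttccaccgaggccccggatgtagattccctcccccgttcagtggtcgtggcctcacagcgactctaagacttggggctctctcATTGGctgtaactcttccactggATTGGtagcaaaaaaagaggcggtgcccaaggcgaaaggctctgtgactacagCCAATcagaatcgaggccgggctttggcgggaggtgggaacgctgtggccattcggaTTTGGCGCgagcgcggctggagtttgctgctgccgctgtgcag
In CCNB2 and PLK1, the CHR element began 29 bases before the gene start. MKI67 held 2 CHR elements, and the second of them overlapped a CCAAT box read on the other strand. MCM6 held 2 E2F sites and CDC6 held 1. A CHR match was also present in MCM6, beginning 246 bases before the gene start, and both genes held CCAAT boxes. Over the members with an entry, the CHR element was present in 15 of 20 mitosis genes and in 2 of 13 S phase and G1/S genes, against 19.5% of the 27305 genes in the promoter table. The E2F site was present in 9 of 13 S phase and G1/S genes and in 1 of 20 mitosis genes, against 5.5% of all genes. The CCAAT box was present in 27 of 36 members, against 39.7% of all genes. A match of these letters is a description of the sequence and was not tested as a binding site.

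Between 14885589 and 19176239 reads were counted on genes per library, with a median of 16452289, and all 47 members passed the filter on low counts that left 19505 genes. The values are given on 2 scales. FPKM is the level per exon length and library total, as deposited, and log2 fold changes (log2FC) come from edgeR after TMM scaling, with their standard error (SE). The scales differ by a shift of all genes. With library totals in place of TMM, the median log2FC of all genes from Day 12 to Day 16 was −0.11 for NP-IWP2, −0.28 for P-DF and −0.49 for P-IWP2 cells, against 0.00, −0.02 and −0.08 with TMM. The Day 12 library P-IWP2 replicate 5 stood apart from its pair. Its 11 cardiomyocyte markers summed to 2300 FPKM against 4697 in replicate 6, its 7 fibroblast or stromal markers to 755 FPKM against 44.3, and its 6 epicardial markers to 134 FPKM against 0.33. NP-IWP2 libraries also carried the stromal markers (783 to 1385 FPKM), as well as hepatic endoderm markers (408 to 828 FPKM), and the other 7 passaged libraries had 23.9 to 44.3 FPKM and 5.71 to 20.1 FPKM of them. In bulk RNA, fewer cells of a type and less RNA per cell cannot be told apart, and the part of these markers in the results below was not tested.

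Transcripts of all members were found in every library. By median FPKM over the 12 libraries, the most abundant members were CCND1 (30.9), PCNA (29.2) and MCM3 (25.8), and the least abundant was CCNE2, which ranged from 0.38 to 0.96 FPKM. Of the mitosis genes, TOP2A had a median of 16.2 FPKM, CCNB1 of 14.8 and ANLN of 13.4, and MKI67 ranged from 2.92 to 7.5 FPKM.

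No S phase or mitosis gene was called lower on Day 16 than on Day 12, and many were called higher in passaged cells. In NP-IWP2 cells, 1 of the 41 passed the test. The log2FC from Day 12 to Day 16 had a median over these 41 genes of 0.44 for NP-IWP2, 0.79 for P-DF and 0.96 for P-IWP2 cells. The log2FC was positive for 41, 41 and 40 of the 41 genes. Over all 47 members, 1 gene rose in NP-IWP2, 17 rose in P-DF and 28 rose in P-IWP2 cells at an adjusted p under 0.05, and no member fell. The share of all genes called higher was 0.877%, 6.79% and 12.9%, and that called lower was 1.1%, 6.81% and 14.1%. Both Day 16 libraries lay above both Day 12 libraries on the TMM scale for 41, 44 and 37 of the 47 members, where the share of all genes was 33.3%, 33% and 27.3%. On FPKM, this held for 36, 43 and 16 members, against 24%, 18.2% and 11.6% of all genes.

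**Figure D1:**
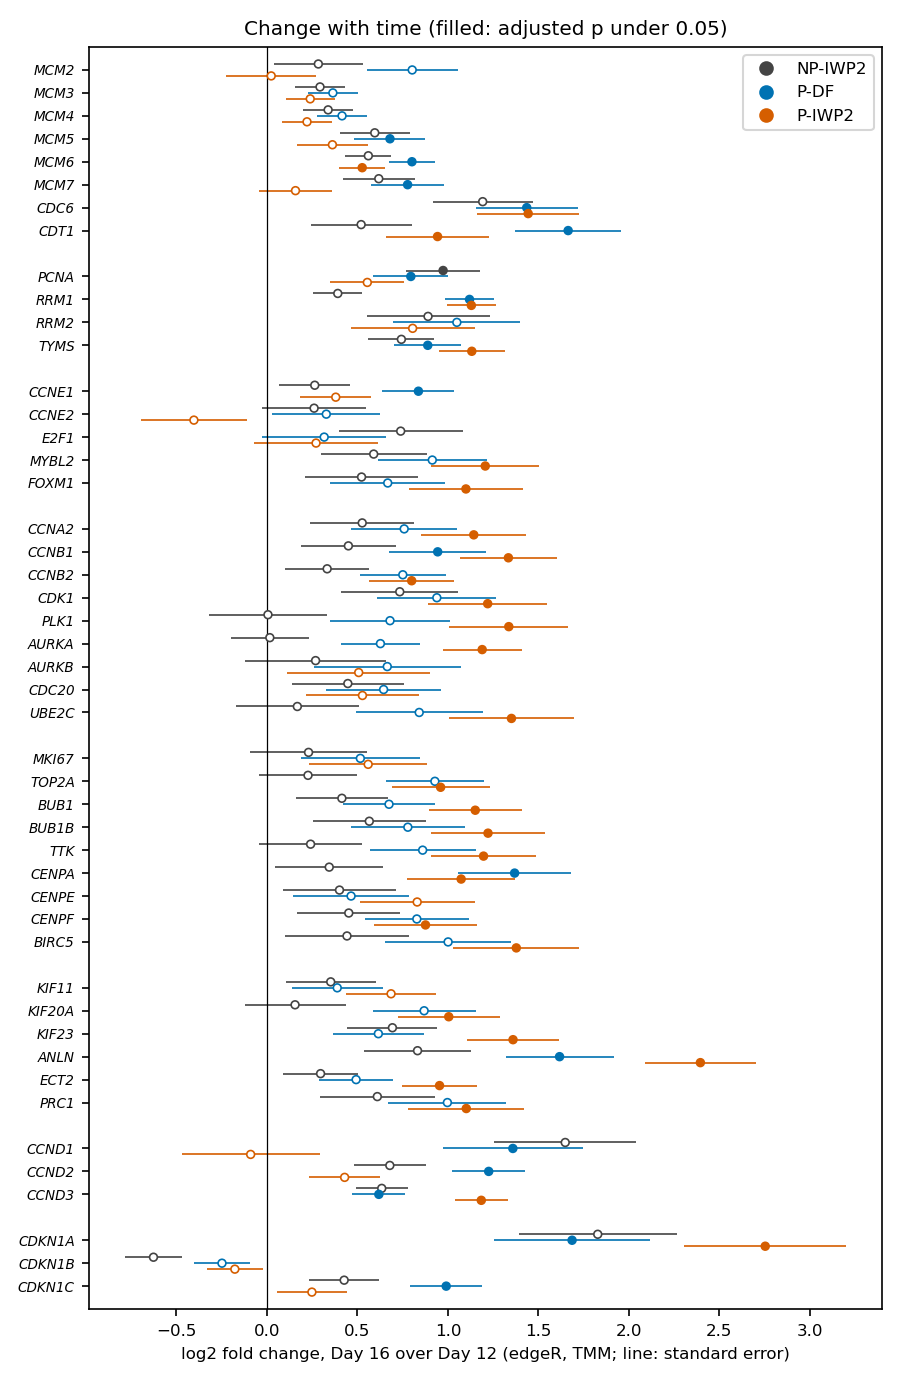
Log2 fold change from Day 12 to Day 16 for each of the 47 genes (vertical axis, grouped by role) in NP-IWP2 (grey), P-DF (blue) and P-IWP2 (orange) cells, from edgeR with TMM. Points are estimates, lines are standard errors and filled points have an adjusted p under 0.05; nearly all points lie to the right of 0, with 1, 17 and 28 of them filled.

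Of the 12 helicase, loading, nucleotide and clamp genes, the helicase loaders CDT1 and CDC6 had the largest log2FC with time in P-DF cells. CDC6 was at 1.63 and 1.79 FPKM in NP-IWP2, 1.67 and 0.87 in P-DF, and 1.71 and 1.30 in P-IWP2 libraries on Day 12. On Day 16 it was at 3.11 and 4.17, 2.92 and 2.84, and 2.83 and 3.26 FPKM. All Day 16 libraries were thus above all Day 12 libraries, and CDC6 rose by a log2FC of 1.44 (SE 0.28, adjusted p = 0.0129 by edgeR) in P-DF and 1.44 (SE 0.28, adjusted p = 0.00782) in P-IWP2 cells. CDT1, which loads the helicase with CDC6, rose by 1.66 (SE 0.29, adjusted p = 0.00831) in P-DF cells, and its log2FC of 0.94 in P-IWP2 cells was also called. CDT1 was at 1.53 and 0.89 FPKM in the Day 12 P-DF libraries and at 3.11 and 3.32 FPKM in those of Day 16.

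The helicase itself moved less. MCM6 rose by a log2FC of 0.80 (SE 0.13, adjusted p = 0.00536) in P-DF and 0.53 (SE 0.13, adjusted p = 0.0176) in P-IWP2 cells, and MCM5 (0.68) and MCM7 (0.78) rose in P-DF cells. MCM2 was at 5.19 and 6.30 FPKM in NP-IWP2, 4.27 and 2.92 in P-DF, and 5.81 and 4.04 in P-IWP2 libraries on Day 12, and at 4.97 and 8.06, 5.28 and 5.24, and 4.34 and 3.15 FPKM on Day 16. Only the P-DF libraries of MCM2 separated by day, and no change with time of MCM2 passed the test (log2FC 0.28, 0.80 and 0.02). On FPKM, both Day 16 P-IWP2 libraries were below both Day 12 ones for MCM3, MCM4 and MCM7, while their log2FC after TMM scaling was 0.24, 0.22 and 0.16, none of them called.

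PCNA, the sliding clamp of the DNA polymerase, was the member called in NP-IWP2 cells. It was at 22.3 and 26.04 FPKM in NP-IWP2, 26.7 and 16.5 in P-DF, and 30.5 and 25.7 in P-IWP2 libraries on Day 12, and at 39.1 and 48.9, 29.97 and 32.8, and 33.6 and 28.4 FPKM on Day 16. The days separated in NP-IWP2 and P-DF cells but overlapped on FPKM in P-IWP2 cells, and PCNA rose by 0.97 (SE 0.21, adjusted p = 0.0490) and 0.79 (SE 0.21, adjusted p = 0.0352) in the first 2 treatments. RRM1, a subunit of ribonucleotide reductase, was at 11.5 and 11.9, 8.92 and 7.43, and 10.7 and 8.37 FPKM on Day 12, in the same order of treatments. On Day 16 it was at 12.9 and 15.4, 14.1 and 15.7, and 14.9 and 16.1 FPKM, above both Day 12 libraries in each treatment. It rose by 1.12 (SE 0.14, adjusted p = 0.00170) in P-DF and 1.13 (SE 0.14, adjusted p = 0.00136) in P-IWP2 cells. TYMS, which makes thymidylate, also rose in both, by 0.89 and 1.13. RRM2, the other subunit of the reductase, had a log2FC of 0.80 to 1.05 and was not called.

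Of the G1/S regulators, CCNE1 (cyclin E1) was at 4.21 and 4.77 FPKM in NP-IWP2, 2.84 and 3.51 in P-DF, and 3.77 and 3.78 in P-IWP2 libraries on Day 12, and at 4.62 and 5.36, 4.06 and 5.41, and 3.93 and 3.50 FPKM on Day 16. On FPKM, only in P-DF cells did the libraries of the 2 days not overlap, while after TMM scaling those of Day 16 were higher in all 3 treatments. CCNE1 rose in P-DF cells by 0.84 (SE 0.20, adjusted p = 0.0261). In P-IWP2 cells, the transcription factors of the mitotic program rose, MYBL2 by 1.21 (SE 0.30, adjusted p = 0.0192) and FOXM1 by 1.1. E2F1 (0.27 to 0.74) and CCNE2 (−0.40 to 0.33) were not called in any treatment.

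Mitosis genes made up most of the calls in P-IWP2 cells, with 19 of 24 rising, and 3 of 24 rose in P-DF cells. CCNB1 (cyclin B1) was at 13.8 and 14.99 FPKM in NP-IWP2, 10.5 and 9.51 in P-DF, and 12.2 and 10.4 in P-IWP2 libraries on Day 12. It was at 19.0 and 17.3, 14.8 and 17.5, and 14.9 and 27.2 FPKM on Day 16, above both Day 12 libraries in each treatment. CCNB1 rose by 0.94 (SE 0.27, adjusted p = 0.0466) in P-DF and 1.33 (SE 0.27, adjusted p = 0.00870) in P-IWP2 cells. The largest log2FC of the 41 genes in any treatment was that of ANLN (anillin, a scaffold of the cleavage furrow) in P-IWP2 cells. ANLN was at 7.56 to 10.9 FPKM in all Day 12 libraries. On Day 16, ANLN was at 18.4 and 15.9 FPKM in NP-IWP2, 20.8 and 23.4 in P-DF, and 24.0 and 46.5 in P-IWP2 libraries. It rose by 1.62 (SE 0.30, adjusted p = 0.0101) in P-DF and 2.39 (SE 0.31, adjusted p = 0.00163) in P-IWP2 cells, and its log2FC in NP-IWP2 cells was 0.83 without a call. CENPA, the centromeric histone, rose by 1.37 (SE 0.31, adjusted p = 0.0229) in P-DF cells and by 1.07 in P-IWP2 cells.

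In P-IWP2 cells, UBE2C (a ubiquitin-conjugating enzyme of the anaphase-promoting complex), BIRC5 (survivin) and AURKA (Aurora A kinase) rose by 1.35, 1.38 and 1.19, and BUB1 (a spindle checkpoint kinase) by 1.15. The other mitosis genes called there were CCNA2 (1.14), CCNB2 (0.80), CDK1 (1.22), PLK1 (1.34), TOP2A (0.96), BUB1B (1.22), TTK (1.2), CENPF (0.88), KIF20A (1.00), KIF23 (1.36), ECT2 (0.95) and PRC1 (1.1). MKI67 was at 6.02 and 6.99 FPKM in NP-IWP2, 3.39 and 3.36 in P-DF, and 7.5 and 2.92 in P-IWP2 libraries on Day 12, and at 6.87 and 7.23, 3.92 and 4.15, and 4.36 and 6.74 FPKM on Day 16. The Day 12 P-IWP2 libraries of MKI67 lay on either side of the Day 16 ones, and its log2FC with time was 0.23, 0.52 and 0.56, none called. TOP2A (topoisomerase II alpha) was at 15.3 and 17.5, 10.4 and 9.35, and 17.2 and 10.0 FPKM on Day 12, and at 18.01 and 17.5, 14.3 and 17.1, and 14.5 and 24.3 FPKM on Day 16. Its days overlapped on FPKM in NP-IWP2 and P-IWP2 cells and separated in P-DF cells, where its adjusted p was 0.0521.

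Other genes of the same pathways are given by list, to be read against the 6.79% of all genes that rose in P-DF and the 12.9% in P-IWP2 cells. Of 50 further mitosis genes, 11 rose in P-DF cells and 25 rose among P-IWP2 cells, none fell and none was called in NP-IWP2 cells, and the median log2FC was 0.36 for NP-IWP2, 0.74 for P-DF and 0.89 for P-IWP2 cells. DEPDC1 rose by 1.36 and 1.80, PBK by 1.5 in P-DF and SKA1 by 1.68 in P-IWP2 cells. Of 38 further replication genes, 11 and 12 rose and none fell, with TK1 (thymidine kinase) up by 1.48 and 1.98 in the same order, DTL by 1.51 in P-DF and GINS1 by 1.16 in P-IWP2 cells. Of 28 further G1 regulators tested, 4 rose and 2 fell in P-DF and 7 rose in P-IWP2 cells. MYCN rose by 2.48 and 0.99 and LIN9, a subunit of the complex that works with MYBL2, by 1.84 and 2.24, while in NP-IWP2 cells MYC rose by 1.40.

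The numbers of calls depended on single libraries. Without the Day 12 library P-IWP2 replicate 5, which entered the shared estimate of the spread, 15 members rose and 1 fell (CDKN1B) in NP-IWP2, 35 rose in P-DF, and 33 rose and 1 fell (CDKN1B) in P-IWP2 cells, while 9.84%, 15.8% and 13.1% of all genes rose. In P-IWP2 cells the calls rested on the Day 16 library replicate 6: without it, 8 members rose, against 3.85% of all genes, and 27 rose without replicate 5 of that day, against 10.6%. In P-DF cells, leaving out a P-DF library left 11 (Day 12 replicate 3), 3 (Day 12 replicate 4), 7 (Day 16 replicate 3) or 2 (Day 16 replicate 4) rising members, where 2.48%, 1.31%, 2.28% and 1.49% of all genes rose. Leaving out 1 of the NP-IWP2 libraries of Day 12 left 11 or 10, against 4.17% and 4.16%. Without Day 12 P-IWP2 replicate 6, 35 members rose in P-DF cells, against 15.8%, and without either Day 16 P-IWP2 library 30 rose, against 6.58%. In NP-IWP2 cells, 16 members rose and 1 fell without Day 12 P-IWP2 replicate 6, against 9.93% and 8.42%. There, 5 rose without either Day 12 P-DF library (0.538% of all genes), 2 rose without either Day 16 P-IWP2 library (0.959%), and none was called without any 1 of the other 6 libraries. Scaled to library totals, 8 members rose for P-DF and 10 for P-IWP2 cells, against 3.45% and 5.46% of all genes, and CDKN1B fell in all 3 treatments. With only the groups compared in the model, no member was called with time in P-IWP2 cells, while more were called in NP-IWP2 and P-DF cells than in the full fit. The standard deviation of the log2 CPM difference between replicates was 1.18 in Day 12 P-IWP2 and 0.37 to 0.57 in the other groups.

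Day 16 P-IWP2 replicate 6 differed from replicate 5 in the mitosis genes more than in the replication genes. Of the 41 S phase and mitosis genes, 34 were higher in replicate 6, by a median of 0.76 on the log2 CPM scale, while the median of all genes was 0.00. The 24 mitosis genes summed to 298 FPKM in replicate 6 and 167 in replicate 5, whereas the 8 helicase and loading genes summed to 65.6 and 71.3 FPKM. The ratio of these sums, from which the library total cancels, was 4.54 in replicate 6, 2.35 in replicate 5 and between 1.55 and 2.24 in the other 10 libraries. The 4 smooth muscle markers moved with it, at 895 FPKM in replicate 6, 295 in replicate 5 and 143 to 433 in the other libraries, and their part in the result was not tested. In Day 12 P-IWP2, the ratio was 2.22 in replicate 5 and 1.55 in replicate 6.

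**Figure D2:**
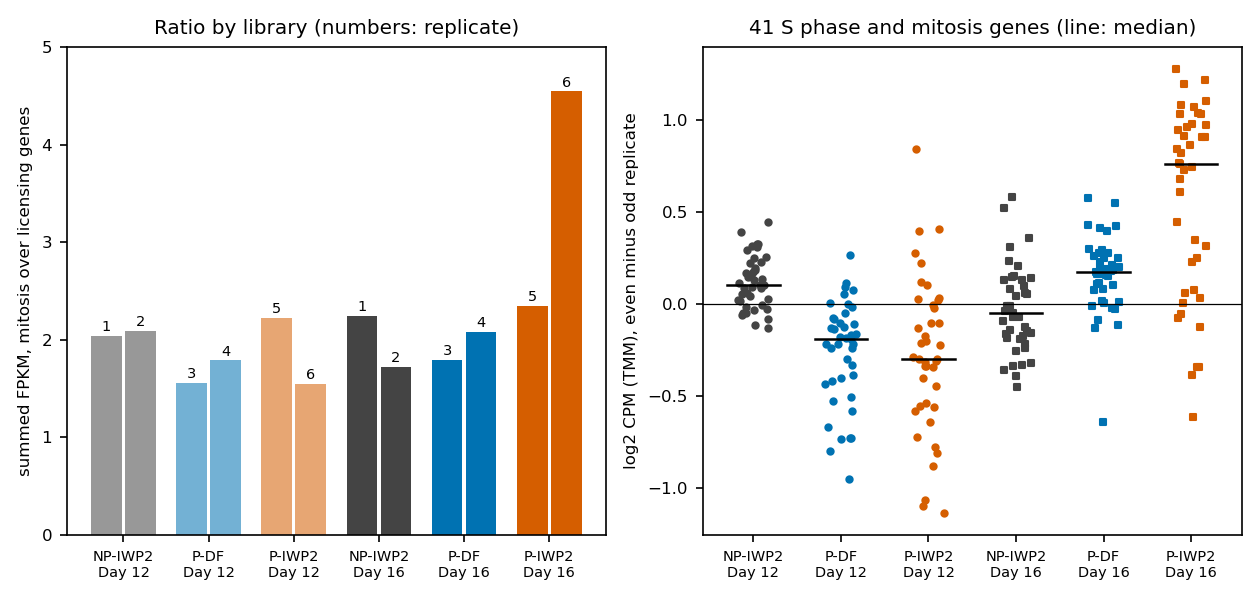
Left: summed FPKM of 24 mitosis genes divided by that of 8 helicase and loading genes, 1 bar per library with its replicate number, pale for Day 12 and dark for Day 16; Day 16 P-IWP2 replicate 6 reaches 4.54 and the others stay at or under 2.35. Right: difference of log2 CPM (TMM) between the libraries of each group, even-numbered minus odd-numbered replicate, for each of 41 genes, with the median as a line, which is 0.76 in Day 16 P-IWP2.

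Whether the change with time differed between passaged and static cells was tested as an interaction of passaging and day. No member was called by edgeR for P-DF or for P-IWP2. Of all genes, 0.482% (0.174% higher, 0.308% lower) and 1.84% (0.774% higher, 1.06% lower) were called. At an unadjusted p under 0.05 there were 3 and 10 members. The share of all genes at that threshold is not given, so these counts are not read as a result about the members. DESeq2 called 0 and 4 members, which for P-IWP2 were ANLN, AURKA and RRM1 higher and CCND1 lower. The DESeq2 share of all genes is not given here. The larger rises in passaged cells were thus not shown to differ from those in NP-IWP2 cells. The largest positive interaction terms were those of ANLN (1.56, 95% interval 0.63 to 2.49, adjusted p = 0.0843), PLK1 (1.33) and UBE2C (1.18) for P-IWP2 and of CDT1 (1.14, 95% interval 0.24 to 2.04, adjusted p = 0.278) for P-DF. Without Day 12 P-IWP2 replicate 5, RRM1 was called higher for P-DF, and ANLN, AURKA, MKI67 and RRM1 were called higher and CCND1 lower for P-IWP2. Members were also called for both without replicate 6 of that group. For P-IWP2, this was so without Day 16 P-IWP2 replicate 5 and without either Day 12 P-DF library.

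**Figure D3:**
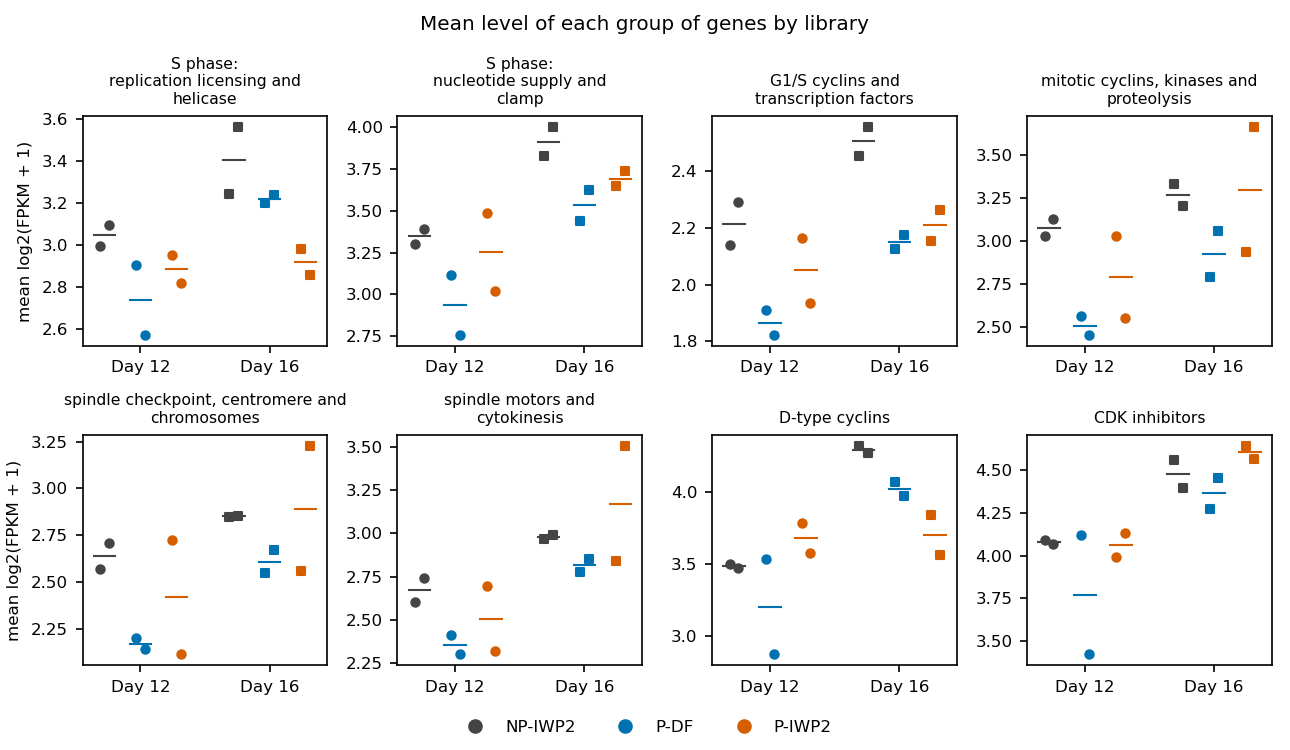
Mean log2(FPKM + 1) of each of the 8 groups of genes in every library, with the mean of 2 libraries as a line; circles are Day 12 and squares Day 16, and the vertical axes do not start at 0. In the panels of replication and mitosis genes, P-DF libraries (blue) lie lowest or near lowest on Day 12, and Day 12 P-IWP2 replicate 5, the higher of its pair in them, lies near the NP-IWP2 libraries.

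Most S phase and mitosis genes had a negative log2FC against NP-IWP2 cells on Day 12, but none of the 41 passed the test, and no change of this difference between the days passed it. The comparisons of P-DF and of P-IWP2 with NP-IWP2 cells share the NP-IWP2 libraries, so their values are given side by side. On Day 12, the median log2FC of the 41 genes was −0.42 for P-DF and −0.25 for P-IWP2 cells, with 4 and 3 positive values, and none was called in the model of 6 groups. Over all 47 members, 15 and 4 had an unadjusted p under 0.05. The share of all genes at that threshold is not given, so these counts are not read as a result about the members. The called members were CDKN1C and CCND3 in P-DF and CCND3 in P-IWP2 cells, all lower. Of all genes, 3.32% and 1.33% were called lower, and 0.697% and 0.328% higher, or 4.01% and 1.66% in all. Both P-DF libraries were below both NP-IWP2 libraries on the TMM scale for 32 of the 47 members and above for 2, against 34.2% and 31.8% of all genes, and on FPKM for 38 and 1, against 41.2% and 24.6%. With only the groups compared in the model, 25 members were called lower for P-DF on Day 12, against 16.4% of all genes, and without the filter on low counts 9, against 5.36%. For P-IWP2 cells, 25 members lay below on the TMM scale and 3 above, against 20.1% and 15.6% of all genes, and on FPKM 15 and 2, against 17.7% and 15.7%.

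**Figure D4:**
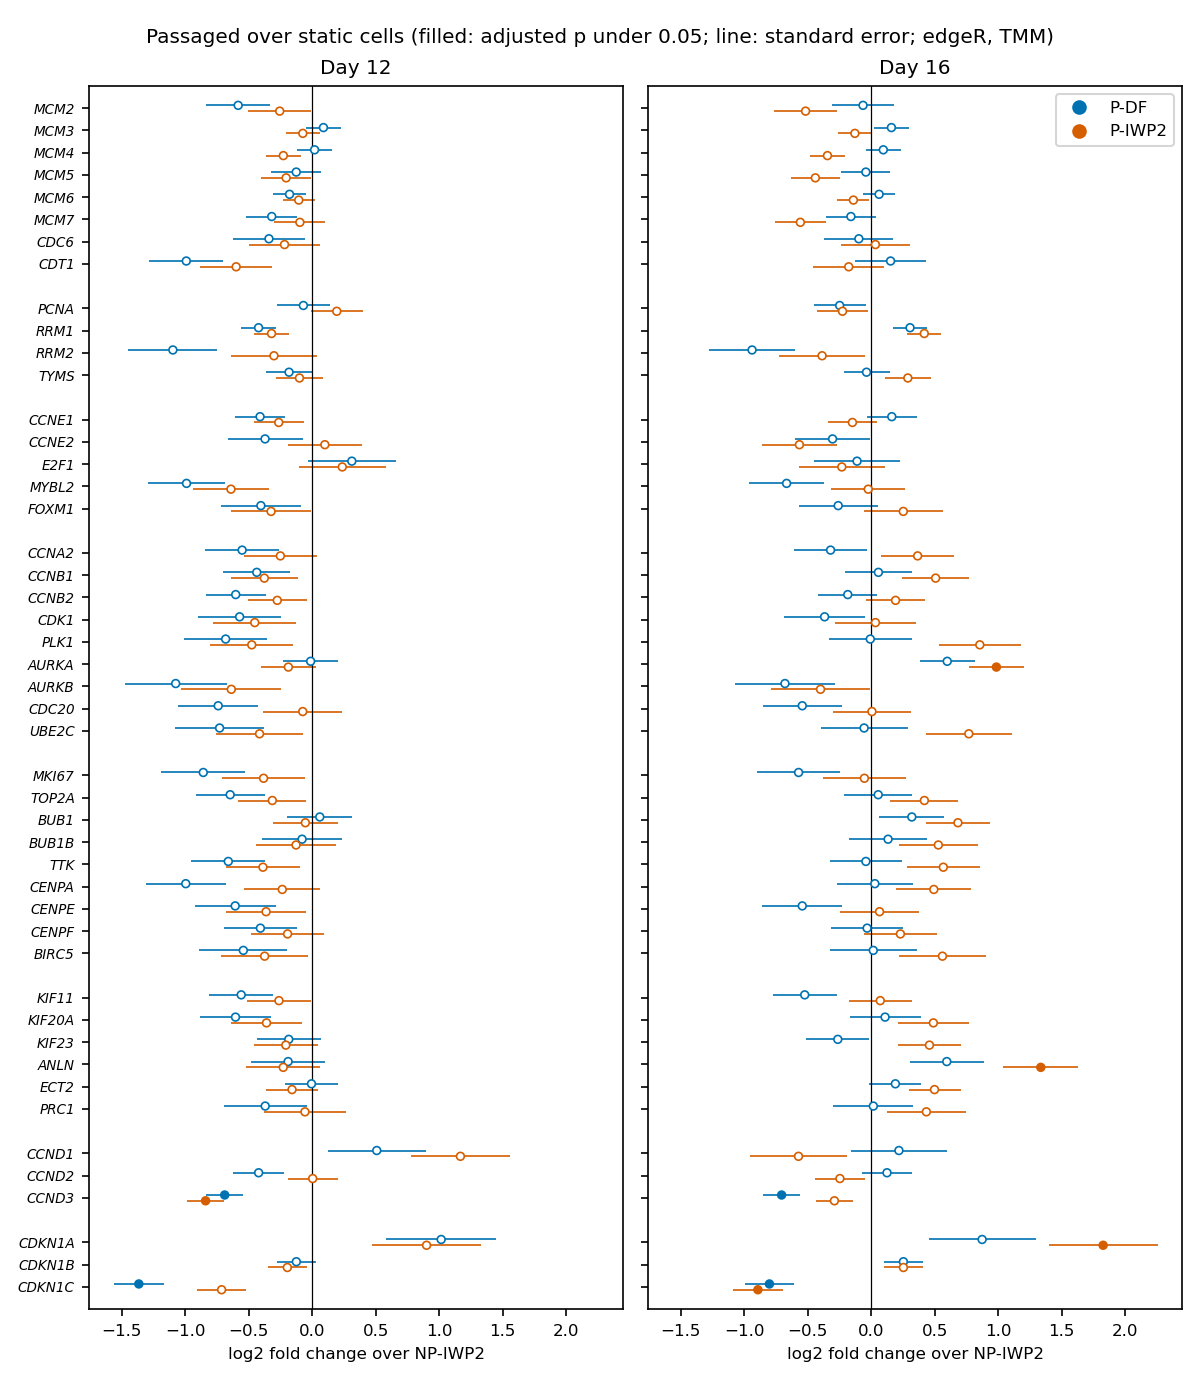
Log2 fold change of P-DF (blue) and P-IWP2 (orange) over NP-IWP2 cells for each of the 47 genes on Day 12 (left) and Day 16 (right), from edgeR with TMM. Lines are standard errors and filled points have an adjusted p under 0.05; most Day 12 points lie left of 0, with 2 filled for P-DF and 1 for P-IWP2, and the Day 16 points spread to both sides, with 2 and 4 filled.

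In the library that stood apart, Day 12 P-IWP2 replicate 5, the 24 mitosis genes summed to 164 FPKM, between the NP-IWP2 libraries (155.5 and 171 FPKM). After TMM scaling, replicates 5 and 6 both lay below both NP-IWP2 libraries for 25 of the 47 members, among them CCNB1, PLK1 and ANLN. For all genes, this share was 20.1%. MKI67 was at 7.5 FPKM in replicate 5, above the NP-IWP2 libraries (6.02 and 6.99), and at 2.92 to 3.39 FPKM in the other 3 passaged libraries of that day. The summed FPKM of the 41 genes was 313 in replicate 5, 297 and 326 in NP-IWP2 libraries, 251 and 214 in P-DF libraries and 239 in P-IWP2 replicate 6. The summed stromal and epicardial markers were high in the same 3 libraries and low in the other 3 of that day. The epicardial sums of the NP-IWP2 libraries were 28.7 and 48.3 FPKM. Single markers differed. In replicate 5, COL1A1, COL1A2, COL3A1 and PDGFRA were at 176, 82.5, 457 and 37.7 FPKM. LUM (0.55), DCN (0.26), POSTN (0.70) and the epicardial UPK3B (0.10) were there below both NP-IWP2 libraries, where LUM was at 97.6 and 73.2 FPKM. Without replicate 5, 10 members were called lower for P-DF and 6 for P-IWP2 cells, against 14.1% and 10.2% of all genes, and none was called higher, against 8.87% and 5.89%. The share for P-IWP2 was thus near that of all genes. Its arm is then 1 library, replicate 6, which is assumed to vary like the other groups. MKI67, AURKB, MYBL2, RRM2, CCND3 and CDKN1C were called lower in both passaged treatments in this fit, and CDT1, CENPA, RRM1 and TOP2A in P-DF cells. MKI67 in P-DF cells had a log2FC of −0.86 with an adjusted p of 0.00415 without replicate 5 and of 0.176 with it. Without either Day 12 NP-IWP2 library, no member was called in P-DF or P-IWP2 cells, and without Day 12 P-IWP2 replicate 6 more were called in both than in the full fit. Without a Day 16 library, 1 member was called for P-DF, and none for P-IWP2 where that library was of NP-IWP2 cells.

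On Day 16, the median log2FC of the 41 genes was −0.04 for P-DF and 0.19 for P-IWP2 cells. After TMM scaling, both P-DF libraries were below both NP-IWP2 libraries for 14 of the 47 members and above for 12, against 35.7% and 33.3% of all genes, and both P-IWP2 libraries for 14 and 8, against 34.6% and 30.6%. On FPKM the counts were 29 below and 3 above for P-DF, against 50.2% and 18.8% of all genes, and 17 and 4 for P-IWP2, against 50.7% and 16.2%. More members were thus below than above on either scale, and all genes were so too. In P-DF cells, CDKN1C and CCND3 were again the members called, both lower, where 9.86% of all genes were called lower and 5.39% higher. No member was called there without 1 of the Day 16 NP-IWP2 libraries or without P-DF replicate 4 of that day, and 1 was called lower without P-DF replicate 3. More members were called without a P-IWP2 library of either day than in the full fit. In P-IWP2 cells, ANLN (log2FC 1.33, SE 0.29, adjusted p = 0.0164), AURKA (0.99, SE 0.22, adjusted p = 0.0165) and CDKN1A were higher and CDKN1C was lower, where 7.15% and 9.95% of all genes were called higher and lower. AURKA was at 11.1 and 17.4 FPKM in P-IWP2 and 9.11 and 8.48 in NP-IWP2 libraries on Day 16. Without Day 16 P-IWP2 replicate 6, no member was called in this comparison, as was the case without either of the Day 16 NP-IWP2 libraries. Without P-IWP2 replicate 5 of that day, 14 members were called higher and 1 lower, against 3.97% and 4.7% of all genes. More members were called in both directions together without a passaged library of Day 12 than in the full fit.

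Among the replication genes, the helicase subunits had lower estimates in Day 16 P-IWP2 than in NP-IWP2 cells. MCM2 to MCM7 all had a negative log2FC, from −0.56 (MCM7, adjusted p = 0.0855 by edgeR) to −0.13 (MCM3). Both P-IWP2 libraries lay below both NP-IWP2 libraries for each of the 6 on either scale. Of all genes, 34.6% lay below in this way after TMM scaling and 50.7% on FPKM. None of the 6 was called, and without Day 12 P-IWP2 replicate 5 the adjusted p of MCM7 was 0.0257 and that of MCM4 0.0145. RRM1 and TYMS, by contrast, lay above both NP-IWP2 libraries after TMM scaling, and RRM1 was called higher without Day 12 P-IWP2 replicate 5 or 6. Of the 24 mitosis genes, 22 had a positive log2FC in the same comparison, with a median of 0.47, and the other 2 were MKI67 (−0.05) and AURKB (−0.40). Their summed FPKM was 298 in P-IWP2 replicate 6 and 167 in replicate 5, above and below the NP-IWP2 libraries (203 and 193), so the direction of the sum rests on 1 library.

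Over both days, P-DF cells were compared with NP-IWP2 cells in a model of 8 libraries with the day as a second term. There, 13 members were lower and 1 was higher, against 18.9% and 14.6% of all genes. The lower ones were MKI67 (log2FC −0.71, SE 0.08, adjusted p = 0.000192), RRM2 (−1.01, SE 0.16, adjusted p = 0.00118), MYBL2 (−0.82, SE 0.13, adjusted p = 0.00104), AURKB (Aurora B kinase, −0.87), KIF11 (a spindle motor, −0.54), FOXM1 (−0.33), CCNA2 (−0.43), CCNB2 (−0.39), CDK1 (−0.47), CDC20 (−0.64), CENPE (−0.57), CCND3 and CDKN1C. MKI67 was lower in all 4 P-DF libraries (3.36 to 4.15 FPKM) than in all 4 NP-IWP2 libraries (6.02 to 7.23 FPKM). RRM2 was at 1.39, 0.86, 1.68 and 2.21 FPKM in the P-DF and 2.34, 2.79, 4.40 and 4.37 FPKM in the NP-IWP2 libraries, again without overlap. Members of the replicative helicase were not among the calls, with a median log2FC of −0.15 over the 8 genes. Of 50 further mitosis genes, 23 were lower and 1 higher, with KIF15 (−1.06) and ESPL1 (separase, −0.92) changed most, and of 38 further replication genes 10 were lower and 1 higher, with UHRF1 (−1.09) and CLSPN (−0.94) changed most. In the model of all 12 libraries, 4 members were called, all lower (CCND3, CDKN1C, MYBL2 and RRM2), against 14.2% of all genes. MKI67 and the other mitosis genes named here were not called in that model.

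P-IWP2 cells over both days had 1 member higher (CDKN1A) and 1 lower (CDKN1C), where 0.4% and 2.07% of all genes were called, or 2.47% in all. Without Day 12 P-IWP2 replicate 5, CDKN1A and CDKN1C kept their calls, and CCND3 and RRM2 were also called lower. Without any 1 of the other 7 libraries, CDKN1A was not called, and CDKN1C was also not called without Day 16 NP-IWP2 replicate 1. Between the passaged treatments, no member was called by edgeR or DESeq2, and no gene of all was called by edgeR. At an unadjusted p under 0.05 there were 4 members, given without the share of all genes at that threshold. The median log2FC of P-IWP2 over P-DF cells was 0.26 over the 41 genes, with 33 positive values, beside a median of 0.01 over all genes.

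The CDK inhibitors moved each in its own way. CDKN1A, the inhibitor induced by p53, was at 7.83 and 7.56 FPKM in NP-IWP2, 21.3 and 7.87 in P-DF, and 11.6 and 17.0 in P-IWP2 libraries on Day 12. On Day 16 it was at 29.1 and 21.1, 34.9 and 43.9, and 68.7 and 78.6 FPKM. Every Day 16 library was above both Day 12 libraries of its treatment, and the Day 16 passaged libraries were above the static ones. CDKN1A rose with time by 1.69 (SE 0.43, adjusted p = 0.0335) in P-DF and 2.75 (SE 0.45, adjusted p = 0.00400) in P-IWP2 cells, and by 1.83 in NP-IWP2 cells without a call (adjusted p = 0.0674). It was higher in P-IWP2 than in NP-IWP2 cells on Day 16 by 1.83 (SE 0.43, adjusted p = 0.0211), and over both days by 0.94 (SE 0.27, adjusted p = 0.0226) in P-DF and 1.37 (SE 0.27, adjusted p = 0.0430) in P-IWP2 cells. The calls over both days were kept in 7 of 15 alternatives for P-DF and 8 of 15 for P-IWP2. That of P-DF was lost with limma on FPKM and in the model of all 12 libraries. In the model of 6 groups, CDKN1A and mitosis genes were called higher with time in both passaged treatments and not in static cells. Of the 24 mitosis genes, 3 were called for P-DF and 19 for P-IWP2. Static cells moved the same way, with a log2FC of 1.83 for CDKN1A and a positive one for all 24 mitosis genes (median 0.38). No interaction of a member passed the test in that model, so a rise particular to passaged cells was not shown.

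Of 20 further p53 target genes, 9 rose and 1 fell with time in P-IWP2, 4 rose and 1 fell in P-DF, and 1 rose and 1 fell in NP-IWP2 cells. Of all genes, 12.9% rose and 14.1% fell in P-IWP2, 6.79% and 6.81% in P-DF, and 0.877% and 1.1% in NP-IWP2 cells. TP53I3 rose by 1.86 (SE 0.18, adjusted p = 0.000671) in P-IWP2 cells, and BTG2 rose by 1.95 in NP-IWP2 and 2.05 in P-DF cells. Against NP-IWP2 cells on Day 16, 5 were higher and 3 lower in P-IWP2 cells, against 7.15% and 9.95% of all genes. TP53I3 was higher by 1.49 there, and PLK3 was lower by a log2FC of −1.43. TP53I3 also had a called interaction for P-IWP2 (1.34, SE 0.24, adjusted p = 0.0319).

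CDKN1C, an imprinted inhibitor, was at 35.3 and 33.4 FPKM in NP-IWP2, 15.3 and 9.81 in P-DF, and 23.9 and 18.9 in P-IWP2 libraries on Day 12, and at 43.2 and 42.0, 20.1 and 21.6, and 21.7 and 16.4 FPKM on Day 16. Every passaged library was below every static library, on either day. Against NP-IWP2 cells, CDKN1C was lower by a log2FC of −1.36 (SE 0.20, adjusted p = 0.00900) on Day 12 and −0.80 (SE 0.19, adjusted p = 0.0251) on Day 16 in P-DF cells. Its log2FC was −0.89 (SE 0.19, adjusted p = 0.0157) in P-IWP2 cells on Day 16, where it was called, and −0.71 (adjusted p = 0.134) on Day 12. Over both days it was lower, with a log2FC of −1.08 (SE 0.16) and −0.80 (SE 0.10). Within P-DF cells it rose with time by 0.99 (SE 0.20, adjusted p = 0.0135). The stromal and hepatic markers, given above, were also high in all NP-IWP2 libraries. Day 12 P-IWP2 replicate 5 had 755 FPKM of the stromal markers, 8.08 FPKM of the hepatic ones and the highest CDKN1C of the passaged libraries (23.9 FPKM), and the part of these markers was not tested.

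CDKN1B had lower FPKM on Day 16 in every treatment. It was at 14.3 and 15.02 FPKM in NP-IWP2, 13.4 and 11.9 in P-DF, and 11.8 and 13.97 in P-IWP2 libraries on Day 12, and at 8.78 and 8.77, 8.53 and 9.30, and 8.77 and 8.50 FPKM on Day 16. On FPKM the days did not overlap in any treatment. After TMM scaling the log2FC was −0.63 (adjusted p = 0.0743), −0.25 and −0.18, not called. With library totals, and with limma on FPKM, it fell in each treatment. In NP-IWP2 cells it also fell by DESeq2, without the filter on low counts, with only the groups compared, and without Day 12 P-IWP2 replicate 5 or 6, and in P-IWP2 cells without replicate 5. In P-IWP2 cells, MCM3, MCM4, MCM7, CCND1 and CCNE2 also had lower FPKM in both Day 16 libraries than in both Day 12 ones, and after TMM scaling CCNE2 did.

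Of the D-type cyclins, CCND3 was lower than in NP-IWP2 cells in P-DF cells on both days and in P-IWP2 cells on Day 12. CCND3 was at 3.28 and 2.93 FPKM in NP-IWP2, 1.78 and 1.84 in P-DF, and 1.9 and 1.63 in P-IWP2 libraries on Day 12, and at 4.33 and 4.58, 2.58 and 2.08, and 3.10 and 2.91 FPKM on Day 16. Within each day, every passaged library was below both static ones. It was lower, with a log2FC of −0.69 (SE 0.15, adjusted p = 0.0367) and −0.71 (SE 0.14, adjusted p = 0.0128) in P-DF cells on the 2 days and of −0.84 (SE 0.15, adjusted p = 0.0252) in P-IWP2 cells on Day 12, while on Day 16 the log2FC of P-IWP2 cells was −0.29 (adjusted p = 0.188). With time, CCND3 rose by 0.62 (SE 0.15, adjusted p = 0.0261) in P-DF and 1.18 (SE 0.15, adjusted p = 0.00148) in P-IWP2 cells.

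CCND1 was at 15.2 and 14.3 FPKM in NP-IWP2, 29.4 and 9.99 in P-DF, and 34.9 and 32.4 in P-IWP2 libraries on Day 12. On Day 16 it was at 45.7 and 39.7, 42.8 and 42.1, and 26.7 and 21.0 FPKM. In P-IWP2 cells it was thus above static cells on Day 12 and below them on Day 16, without overlap on either day. The log2FC was 1.17 (SE 0.39, adjusted p = 0.239) and −0.57 (SE 0.38, adjusted p = 0.324), and the interaction was −1.74 (95% interval −2.96 to −0.52, adjusted p = 0.122), so none passed the test in this model. Without either Day 12 P-DF library, or without the filter on low counts, CCND1 was called higher on Day 12, lower on Day 16 and in the interaction. It was also called lower on Day 16 with only the groups compared, and in the interaction by DESeq2 and without Day 12 P-IWP2 replicate 6. Without replicate 5 of that group, the interaction was −1.80 with an adjusted p of 0.0497. CCND1 rose with time in P-DF cells by 1.36 (SE 0.39, adjusted p = 0.0480), where its Day 12 libraries differed in the same direction as those of CDKN1A, replicate 3 being the higher.

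CCND2 was at 19.98 and 21.8 FPKM in NP-IWP2, 17.6 and 11.7 in P-DF, and 24.3 and 18.4 in P-IWP2 libraries on Day 12, and at 31.1 and 30.6, 29.3 and 28.1, and 25.0 and 18.3 FPKM on Day 16. It was higher on Day 16 in NP-IWP2 and P-DF cells without overlap, and rose by 1.23 (SE 0.20, adjusted p = 0.00596) in P-DF cells. Its log2FC with time in P-IWP2 cells was 0.43, not called.

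**Figure D5:**
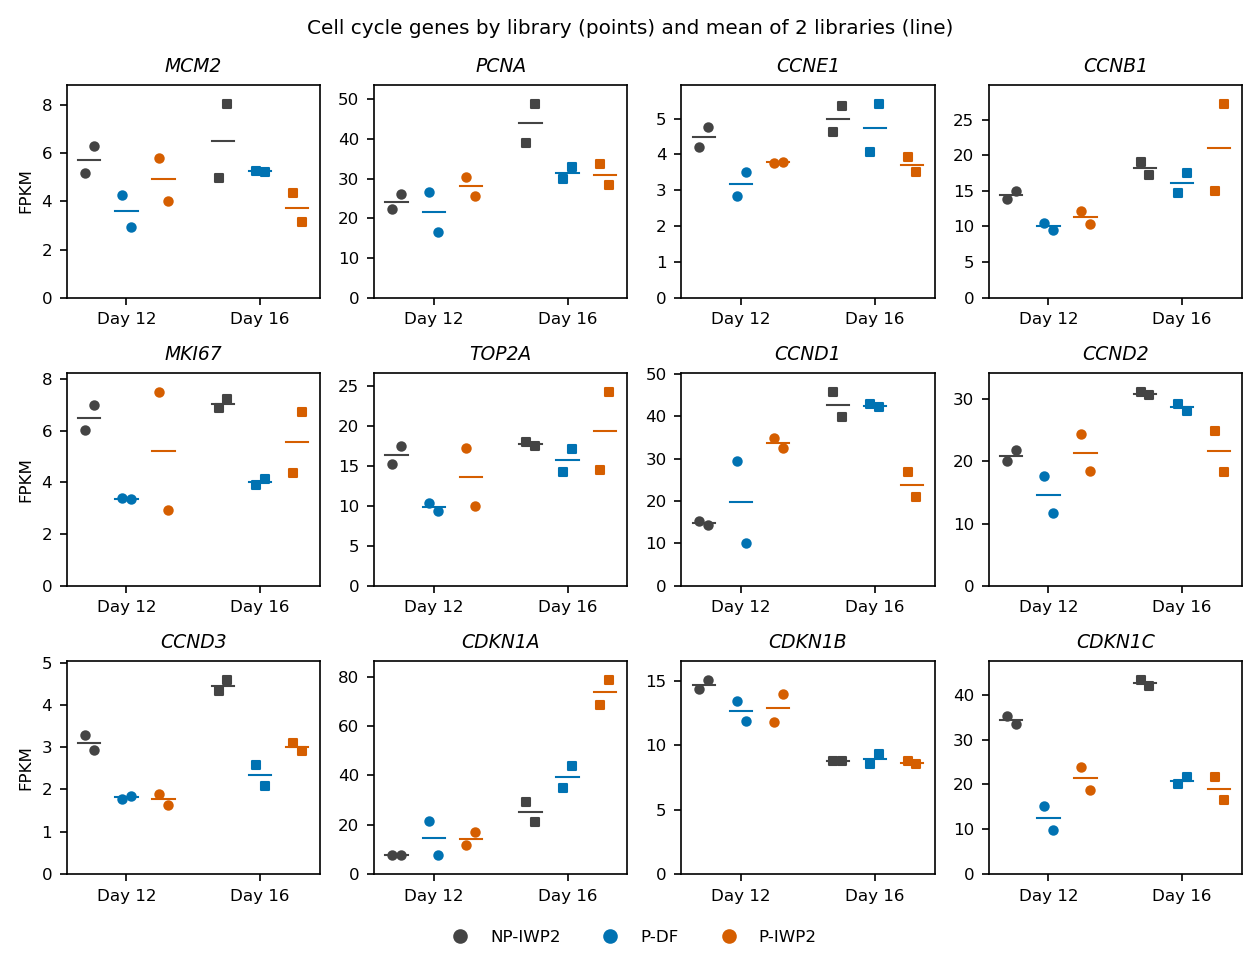
FPKM of 12 genes in every library, with the mean of 2 libraries as a line, for NP-IWP2 (grey), P-DF (blue) and P-IWP2 (orange) cells on Day 12 (circles) and Day 16 (squares). CDKN1C and CCND3 lie lower in passaged than in static cells of the same day, CDKN1A reaches 68.7 and 78.6 FPKM in Day 16 P-IWP2 cells, and MKI67 in P-DF cells stays at 3.36 to 4.15 FPKM.

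Among further G1 regulators, CDKN2B, an inhibitor of CDK4 and CDK6, was lower in passaged cells on Day 16, by a log2FC of −5.02 (SE 0.68, adjusted p = 0.00215) in P-DF and −3.03 (SE 0.58, adjusted p = 0.00930) in P-IWP2 cells. It was at 4.10 and 3.20 FPKM in the static libraries and at 0.08 to 0.47 FPKM in the passaged ones of that day. LIN9 was higher, by 1.91 and 1.66. In all, 2 of 28 such genes were higher and 3 lower in P-DF, and 2 higher and 2 lower in P-IWP2 cells on that day, shares near those of all genes (5.39% and 9.86%, and 7.15% and 9.95%). Of 38 further replication genes, 1 was higher and 2 lower in P-DF cells on Day 16, and 0 higher and 2 lower in P-IWP2 cells. The lower ones in both were POLD1, a subunit of a replicative DNA polymerase (−0.52 and −0.42), and CDC7, a kinase that fires origins (−0.87 and −1.13). Of 50 further mitosis genes, 1 was higher and 0 lower in P-DF, and 3 higher and 0 lower in P-IWP2 cells. The shares of all genes are those just given.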

How the data were processed

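Total RNA of H1 cells was sequenced in 12 libraries, 2 for each of 3 treatments on 2 days. Per the labels and the study's methods, the authors trimmed reads with Cutadapt 1.9.1, aligned them to hg38 with HISAT2 2.0.1, counted them per gene with HTSeq 0.6.1 and used DESeq2. The deposited table holds the authors' read counts per Ensembl gene, not normalized, and FPKM, which the authors computed from these counts by exon length and library total. Members were matched by gene symbol, and 20417 of the 61806 genes have no symbol. All 47 members matched a gene of GENCODE 44 at the position given in the table.

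Here the counts were fitted with edgeR 4.0.16 in R 4.3.3 (TMM, filterByExpr over all 12 libraries, quasi-likelihood test, Benjamini-Hochberg adjustment over 19505 genes, threshold 0.05). A single model of 6 groups gave the comparisons within a day or treatment and the interactions. A model of 8 libraries with a term for the day gave those over both days. A standard error is the log2FC divided by the square root of the F statistic, without its sign. Depth limits a count of 0 to under 0.156 to 0.202 CPM (3 counts, counting error only). Genes were named by rule: MKI67, TOP2A, CCNB1, MCM2, PCNA, CCNE1 and the D-type cyclins and CDK inhibitors in any case, the called member of each role with the largest log2FC and with the lowest adjusted p, other called members by their log2FC, and in each further list the 2 called genes with the largest log2FC. Other genes that the text names, and the members whose promoters are printed, were chosen after their values were seen. The members and lists were chosen with earlier results of these data known.

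Alternatives were DESeq2 1.42.0, RLE size factors, library totals, no filter, limma 3.58.1 on log2(FPKM + 1) and log2(FPKM + 0.1) with a mean FPKM of at least 1, a model of only the groups compared (or of all 12 libraries), each library left out, and a block for the replicate number. Equal numbers did not pair the days (correlations of 0.08, −0.002 and −0.03), and no batch could be told from the labels. On counts simulated for P-DF against NP-IWP2 on Day 16, edgeR recovered 72 of 200 changed genes among 19505 and made 2 false calls. Recovery was 16 of the 100 genes set to 2-fold and 56 of the 100 set to 4-fold. Promoters are those of RefSeq on GRCh38.p14. Scripts ran in Python 3.11.15 (numpy 2.4.6, pandas 2.3.3), and matplotlib 3.10.9 drew the figures.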

Additional observations from a re-analysis of the deposited data

How the results depend on the processing

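None of the 71 called changes of single members reversed under any alternative: of 1331 values, 976 kept the call and 355 lost it. Counts of called members moved more, and they stand here without the share of all genes. That share also moved with the fit: with time in P-DF cells, 6.79% of all genes rose after TMM scaling and 3.45% with library totals. The counts are therefore not results about the members alone. Without the filter on low counts, edgeR called 36 members with time in P-DF and 13 in NP-IWP2 cells. It called 10 (P-DF) and 4 (P-IWP2) against NP-IWP2 cells on Day 12, 8 and 9 on Day 16, 10 for the P-IWP2 interaction, and 2 between the passaged treatments. DESeq2 called 26 (P-DF) and 9 (NP-IWP2) with time, 5 for P-DF on Day 12 and 4 for the P-IWP2 interaction. With library totals, the counts were 9 (P-DF) and 11 (P-IWP2) with time, 9 for P-IWP2 on Day 16 and 23 for P-DF over both days. With limma they were 10 for P-DF (FPKM + 1) and 10 for P-IWP2 with time, 0 and 9 for P-IWP2 on Day 12 and Day 16, and 24 for P-DF over both days. With only the groups compared, they were 30, 43 and 0 with time in NP-IWP2, P-DF and P-IWP2 cells, 25 and 13 for P-DF on Day 12 and Day 16, 0 for P-IWP2 on Day 12, and 7 for the P-DF interaction. The replicate block, whose numbers did not pair the libraries, gave 0, 12 and 14 with time and 0 for both interactions. With all 12 libraries, P-DF over both days had 4. With each library left out in turn, counts ranged from 0 to 17, 2 to 35 and 8 to 34 with time (NP-IWP2, P-DF, P-IWP2). For P-DF and P-IWP2 against NP-IWP2 cells they ranged from 0 to 10 and 0 to 6 on Day 12, 0 to 6 and 0 to 15 on Day 16, and 11 to 15 and 0 to 4 over both days, and for the interactions from 0 to 1 and 0 to 6. The cause of these shifts was not tested, apart from fewer samples. At this depth and with 2 libraries per group, most 2-fold changes of the simulation were not recovered.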
